A study of Mus musculus with 2 samples.

Results

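The collagen genes were the 44 genes, of 32285 listed, whose symbol reads Col, a number, the letter a and a number. They were taken by name alone and counted in liver cells of 1 control and 1 NgBR-deficient mouse library. By type they comprised 11 fibrillar chains, 9 fibril-associated chains, 6 chains of the basement membrane network, 6 beaded filament chains, 4 transmembrane chains, 3 short-chain network chains, 2 endostatin-type chains, 1 anchoring fibril chain and 2 others. The WT library came from liver of a C57BL6 mouse whose genotype is given as CTRL. The N-LKO library came from liver plus tumor of a C57BL6 mouse with loxP-flanked NgBR alleles (gene Nus1) deleted by albumin-Cre. This recombinase is driven by a hepatocyte promoter, so that the deletion is aimed at hepatocytes. The study counts endothelial, stellate and Kupffer cells among the liver cells that express NgBR. The study reports its mice as male. Both libraries followed 16 weeks of diet, given as HFD in the titles and as WD in the treatment field, after a period on standard chow. The labels give no age. Cells were freed by perfusion with collagenase and read by droplet 3′ single-cell RNA-seq. Per the study's methods hepatocytes and nonparenchymal cells were pooled in equal parts, and cells from tumor were added for N-LKO only, so genotype, tumor tissue and library cannot be told apart.

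Collagens are secreted or membrane-anchored proteins in which 3 alpha chains wind into a triple helix. Fibrillar collagens make the tensile fibers that accumulate in fibrosis, fibril-associated collagens sit on those fibers, and type IV collagens form the sheet-like network of basement membranes. In liver, hepatic stellate cells are the best known makers of fibrillar collagen, portal fibroblasts and mesothelial cells also make it, and sinusoidal endothelial cells contribute type IV collagen. Hepatocytes are a main source of Col18a1, whose C-terminal piece is endostatin.

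After filtering, 18426 WT and 19850 N-LKO cells remained, at a median of 1400 and 1454.5 UMIs (unique molecular identifiers, 1 per captured mRNA end). 120 barcodes were kept in both libraries. Clustering without any collagen gene gave 23 clusters, of which 20 were named from markers as X-like, and their UMIs were summed per library. Clusters of mixed markers, 4.61% of WT and 9.31% of N-LKO cells, were set aside. Levels are CPM, a gene's UMIs scaled to the same total in every class and library, not divided by gene length because 1 end is counted per molecule. With 1 library per group there is no replicate, no test was possible, and no p-value is given. The intervals are exact at 95% and cover counting error only. A gene was compared in a class when it had at least 20 UMIs over both libraries and 5 CPM in at least 1, with 0.5 UMI added to each count. It was counted as past 2-fold at a log2 ratio of 1 or more in size. Because a collagen gene that enters only through the library where it is high had to differ, the counts of genes past 2-fold are descriptions. RNA released from broken cells can enter droplets, so each value was set against a free-RNA level made from barcodes under 500 UMIs. These were 18526 WT and 13674 N-LKO barcodes, and the matrices held none under 326 and 377 UMIs. They are not known to be empty droplets and may include small or damaged cells, so the level is an estimate. In those barcodes themselves 8 of 16 collagen genes compared were past 2-fold higher in N-LKO, where 18.6% of all genes were, and none lower, where 16.8% were. The targeted gene Nus1 stood at 72.9 CPM (68.8 to 77.1) in WT and 39.1 CPM (33.6 to 45.2) in N-LKO hepatocyte-like cells, against 78.8 and 80.1 CPM in stellate-like cells, and a 3′ count does not have to fall within the deleted part.

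Collagen mRNA was a small and nearly equal share of both libraries. It made up 15084 WT UMIs, or 0.0519%, and 16808 N-LKO UMIs, or 0.0506%. 31 of the 44 genes had at least 20 UMIs in cells, 25 had over 100, 13 had fewer than 20, and 1 of those 13, Col6a4, had none. Hepatic stellate-like cells were 4.92% of WT cells and held 35.5% of the WT collagen UMIs (interval 34.8 to 36.3), against 3.26% of cells and 21.3% of collagen UMIs in N-LKO (20.7 to 21.9). Hepatocyte-like cells held 41.8% in WT and 8.22% in N-LKO, where they were 53.8% and 10.6% of cells. The endothelial-like share was 10.5% in WT and 19.1% in N-LKO, and a cluster without a name that was found in N-LKO held 13.6% there. These shares follow how cells were mixed as well as what each cell makes.

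Stellate-like cells held the largest share of most subfamilies in WT, and for 5 subfamilies the class with the largest share was the same in both libraries. Stellate-like cells held 76.9% of the fibril-associated UMIs in WT and 50.3% in N-LKO, 72.2% and 47.6% of the beaded filament UMIs, and 1663 of 3329 fibrillar UMIs in WT against 39.9% in N-LKO. Endothelial-like cells held 38.3% and 38.7% of the transmembrane UMIs, mostly Col13a1. Hepatocyte-like cells held 86.8% of the endostatin-type UMIs in WT and 27.4% in N-LKO, nearly all Col18a1. The basement membrane network differed, with 32.9% in stellate-like cells of WT (31.2 to 34.6) beside 30.8% in endothelial-like cells (29.2 to 32.5), and 11.2% beside 29.9% in N-LKO.

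**Figure D1:**
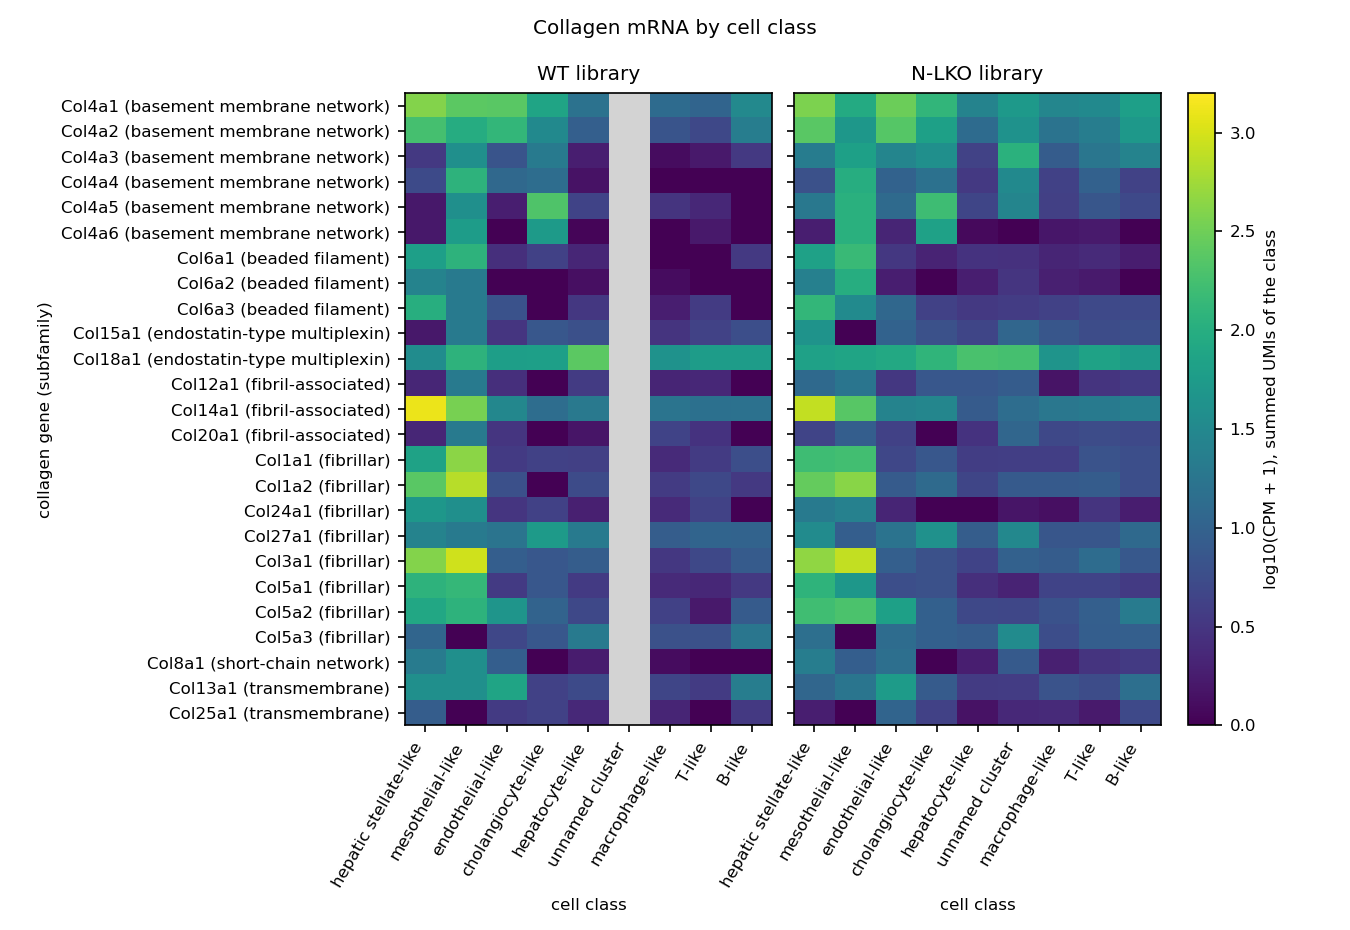
Each row is a collagen gene with its subfamily and each column a cell class, for the WT library and the N-LKO library, colored by log10 of CPM plus 1 from UMIs summed over the class. Stellate-like and mesothelial-like cells hold the bright fibrillar rows in both libraries, Col18a1 is highest in hepatocyte-like cells, and the Col4a3 row is brightest in the unnamed cluster of N-LKO at 111 CPM.

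In hepatic stellate-like cells, 907 in WT and 647 in N-LKO, summed collagen mRNA was level at 3199 CPM (3113 to 3285) and 3120 CPM (3019 to 3224), a log2 ratio of -0.04 (-0.10 to 0.03). Beneath that sum the genes moved apart. The most abundant, the fibril-associated Col14a1, was lower in N-LKO, while fibrillar Col1a1 and Col5a2 and the endostatin-type Col15a1 were higher. Of the 21 genes compared, 5 were past 2-fold higher (Col1a1, Col5a2, Col15a1, Col4a3 and Col4a5) and 2 past 2-fold lower (Col24a1 and Col13a1), where 7.23% of all genes compared in this class were past 2-fold higher and 7.11% lower. Col15a1, Col4a3 and Col4a5 were under 5 CPM in WT, so they entered through N-LKO alone and had to be higher. The median log2 ratio of the 21 was 0.22, beside -0.09 over all genes.

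Type I and type III collagen, the fibers of scar tissue, did not move as 1 block. Col1a1, which encodes the type I chain present in 2 copies per molecule, had 115 UMIs in WT, or 68.7 CPM (56.7 to 82.4), and 184 UMIs in N-LKO, or 160 CPM (138 to 185). The intervals do not overlap, and the ratio was 2.33-fold (log2 1.22, 0.88 to 1.57). Its partner chain Col1a2 stood at 240 CPM (217 to 265) in WT and 280 CPM (250 to 312) in N-LKO, and its log2 ratio was 0.22 (0.00 to 0.43). Col3a1, the type III chain, stood at 401 CPM (371 to 433) and 466 CPM (427 to 507), also a log2 ratio of 0.22 (0.05 to 0.38). Thus the 2 chains of the type I molecule differed unequally between the libraries, and Col1a1 mRNA was the lower of the 2 in both.

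Type V collagen, which starts and thins the type I fiber, was split in the same way. Col5a2 was 81.2 CPM (68.1 to 96.1) in WT and 166 CPM (144 to 192) in N-LKO, 2.05-fold higher (log2 1.03, 0.71 to 1.36), whereas Col5a1 was 117 CPM and 118 CPM (99.4 to 140). Col24a1, a minor fibrillar chain, went the other way, with 80 UMIs in WT and 22 in N-LKO, or 47.8 CPM (37.9 to 59.4) and 19.2 CPM. Its log2 ratio was -1.29 (-2.07 to -0.62).

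Col14a1, which binds the surface of fibers, was the leading collagen of stellate-like cells in both libraries at 1291 CPM (1238 to 1347) in WT and 809 CPM (758 to 863) in N-LKO. It was 1.60-fold lower in N-LKO, at a log2 ratio of -0.67 (-0.79 to -0.56). At 1000 UMIs per cell it was seen in 67.3% of WT stellate-like cells (64.1 to 70.3) and 47.6% of N-LKO ones (43.7 to 51.5), against 1.27% and 2.11% of T-like cells, which should lack it. Without thinning, the stellate-like shares were 83.4% and 62.3% at median depths of 1695 and 1574 UMIs, and the T-like shares 1.78% and 2.74% at 1188 and 1357.5 UMIs. The type VI chains, which form beaded filaments around the cell, differed little, with Col6a3 at 100 CPM (85.7 to 117) and 129 CPM (109 to 151) and Col6a1 at 62.7 CPM (51.3 to 75.9) and 66.2 CPM (52.1 to 82.8).

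The largest ratio in the class was that of Col15a1, an endostatin-type collagen of basement membranes. It had 1 UMI in 1 WT cell, or 0.597 CPM (0.0151 to 3.33), which is at its free-RNA level of 0.963 CPM, and 50 UMIs in 36 N-LKO cells, or 43.5 CPM (32.3 to 57.4), above its free-RNA level of 2.12 CPM. The log2 ratio was 5.62, and with 1 UMI in WT its interval runs from 3.64 to 11.52. Col13a1, a transmembrane collagen, was lower in N-LKO at 10.4 CPM (5.40 to 18.3) against 38.8 CPM, a log2 ratio of -1.85 (-2.92 to -0.99). Endothelial-like cells held the largest share of Col13a1, 43.6% of its WT and 40.5% of its N-LKO UMIs. The part of endothelial RNA in this ratio was not tested.

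The main type IV chains of stellate-like cells, Col4a1 and Col4a2, were close between the libraries. Col4a1 stood at 403 CPM (373 to 435) and 367 CPM (333 to 404), and Col4a2 at 180 CPM (160 to 201) and 238 CPM (210 to 268), log2 ratios of -0.13 (-0.31 to 0.04) and 0.40 (0.16 to 0.64). These genes overlap at their starts on opposite strands, and the strand setting of the counting was not given in the sources used here. The minor chains Col4a3 (4 UMIs in WT, 24 in N-LKO) and Col4a5 (1 and 21) had log2 ratios of 2.99 (1.59 to 5.12) and 4.39 (2.30 to 10.31), and both are taken up again with the unnamed cluster. The other genes compared had log2 ratios from -0.81 (Col16a1) to 0.93 (Col18a1).

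**Figure D2:**
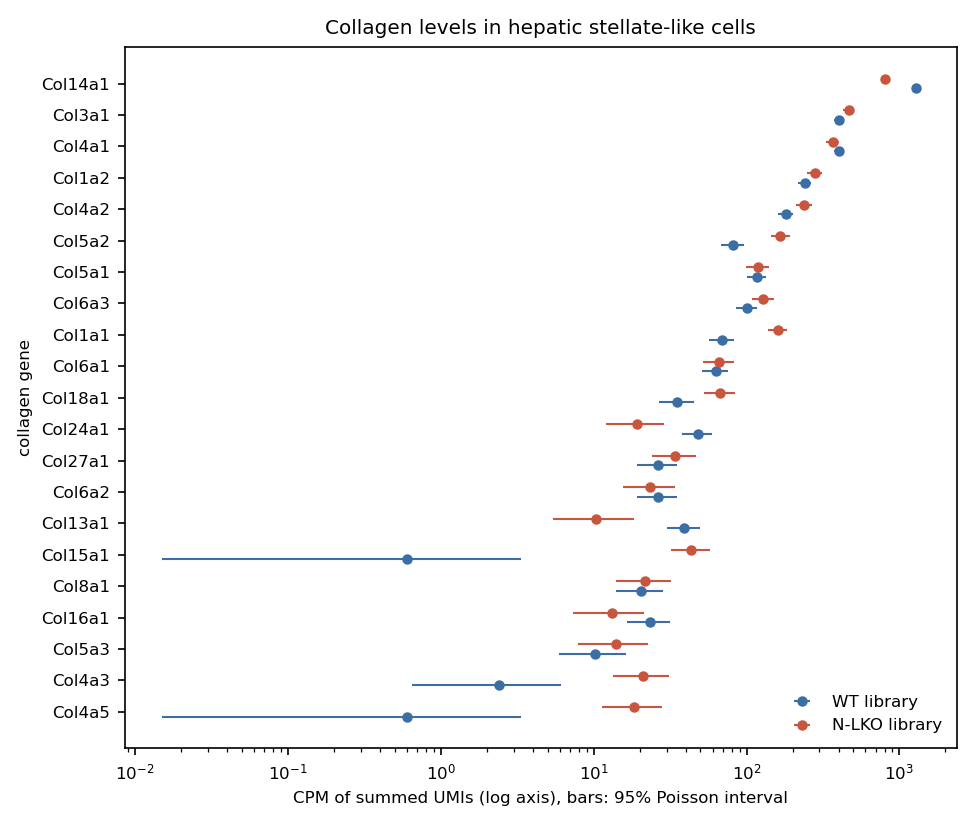
Points are the CPM of each collagen gene in hepatic stellate-like cells of the WT and N-LKO libraries on a log axis, with bars for the 95% Poisson interval of 1 library each. Col14a1 lies to the right at 1291 and 809 CPM, Col1a1 and Col5a2 show separated bars, and Col15a1 spans the widest gap, from 0.597 to 43.5 CPM.

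The make-up of the stellate-like class, which was led by Colec11, Reln, Colec10 and Lrat, differed between the libraries. 13 of the 14 stellate markers were lower in N-LKO, their summed level being 10951 CPM among WT cells and 5860 CPM among N-LKO cells, and Lrat, the retinol-esterifying enzyme of quiescent stellate cells, was 558 and 220 CPM. The 9 fibroblast markers summed to 27.5 CPM (5 seen) and 111 CPM (8 seen), with Gli1 at 0 in both and Pi16, Clec3b and Mfap4 at 0 in WT. The 7 smooth muscle markers summed to 119 and 87.1 CPM. All 12 endothelial markers were lower in N-LKO and summed to 4474 and 2135 CPM, and all 10 Kupffer markers to 3547 and 2398 CPM, so many of these droplets held RNA of other cells. 72.4% of WT and 43.4% of N-LKO stellate-like cells had more than 2 endothelial-marker UMIs, against 3.23% and 5.59% of T-like cells.

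Several ratios held in cells with little of that RNA and others did not. Among the 250 WT and 366 N-LKO stellate-like cells with 2 or fewer endothelial-marker UMIs, Col14a1 had a log2 ratio of -1.16 (-1.34 to -0.98), Col24a1 -1.87 (-3.08 to -0.83) and Col15a1 3.62 (1.59 to 9.53). Col1a1 and Col5a2 were under 2-fold there, at 0.68 (0.16 to 1.24) and 0.76 (0.23 to 1.34), Col3a1 and Col1a2 turned negative at -0.29 (-0.55 to -0.02) and -0.27 (-0.63 to 0.10), and Col13a1 was left with 4 and 2 UMIs. The summed collagen log2 ratio in these cells was -0.39.

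Some of these ratios, but not all, differed in cells without fibroblast markers. 4.52% of WT and 14.2% of N-LKO stellate-like cells had any fibroblast-marker UMI, and in those 41 and 92 cells Col1a1 was 159 and 503 CPM, Col3a1 930 and 1346 CPM, and Col15a1 0 and 98.5 CPM. In the 866 and 555 cells with none, Col1a1 had a log2 ratio of 0.57 (0.15 to 0.99), Col5a2 0.91 (0.55 to 1.28), Col24a1 -1.21 (-2.03 to -0.52), Col3a1 -0.32 (-0.53 to -0.12) and Col14a1 -0.72 (-0.85 to -0.60). Col15a1 kept 1 UMI against 32, a log2 ratio of 5.16 (3.14 to 11.07). The part of the fibroblast-marker cells in the result was not tested beyond these values.

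**Figure D3:**
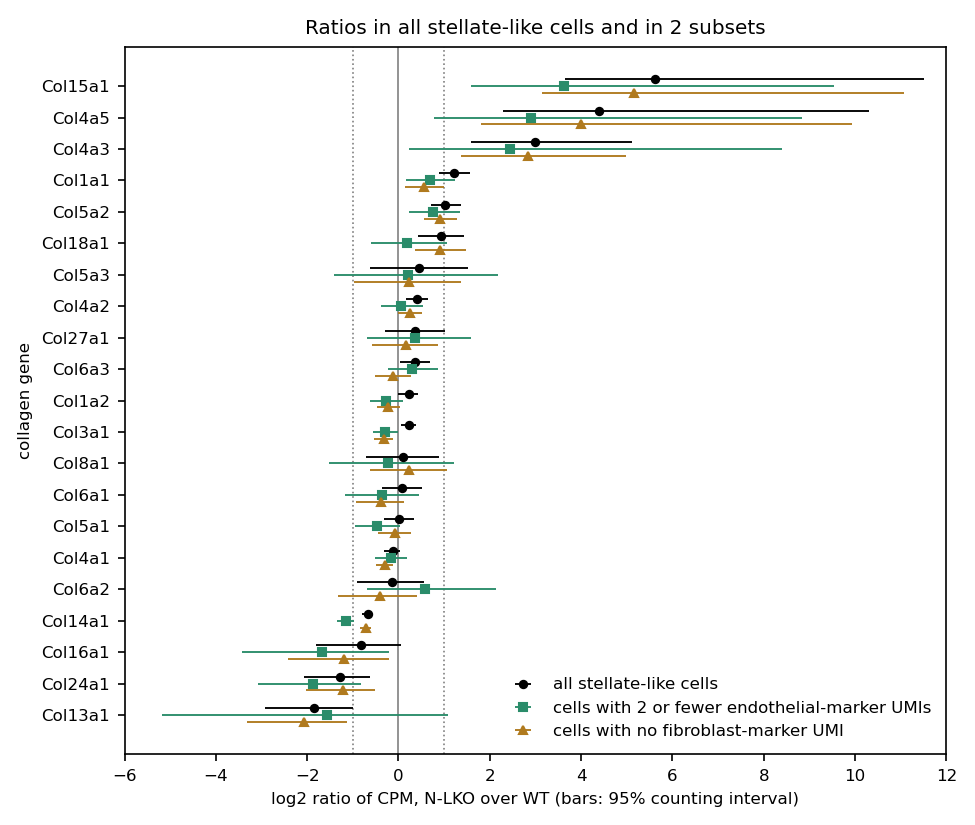
Points are log2 ratios of CPM, N-LKO over WT, for collagen genes in all stellate-like cells, in those with 2 or fewer endothelial-marker UMIs and in those with no fibroblast-marker UMI, and bars are 95% counting intervals. Col14a1 and Col24a1 stay left of 0 and Col15a1 right of it in all 3 sets, while Col1a1 goes from 1.22 to 0.68 and 0.57 and Col3a1 changes side.

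Genes that fold, export, trim, cross-link and bind collagen were read in the same cells, as descriptions only. Over all genes compared in this class, 7.23% were past 2-fold higher and 7.11% lower. Of 14 hydroxylation and folding genes compared in stellate-like cells, 1 was past 2-fold higher and none lower: P3h2, a prolyl hydroxylase that acts on type IV collagen, at 41.2 and 107 CPM. The collagen chaperone Serpinh1 was level at 146 and 144 CPM. Of 11 export and propeptide-removal genes, 3 were past 2-fold higher and none lower. They were Bmp1, the C-propeptide protease, at 11.3 and 28.7 CPM, Adamts14, an N-propeptide protease, at 10.2 and 23.5 CPM, and Tango2. No cross-linking gene of the 4 compared passed 2-fold in either direction. Lox, also on that list, had too few UMIs to be compared, 2 in WT and 11 in N-LKO.

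Of 21 matrix partner genes 2 were past 2-fold higher and 4 lower, where 7.23% of all genes compared were higher and 7.11% lower. Lama2, a laminin chain of basement membranes, had 30 UMIs in WT and 235 in N-LKO, or 17.9 and 205 CPM, a log2 ratio of 3.49 (2.96 to 4.11). Lama1, another laminin alpha chain, went the opposite way at 146 and 60.1 CPM (log2 -1.27, -1.69 to -0.89), as did Sparcl1, a collagen-binding matrix protein, at -1.43 (-2.07 to -0.86) and Lamb2, a laminin beta chain, at -1.16 (-2.69 to 0.02). The other higher gene was Fn1, at 228 and 469 CPM (log2 1.04, 0.85 to 1.23). The other lower gene was Tnc, at 37.6 and 18.3 CPM (log2 -1.02, -1.83 to -0.31). Of 9 collagen receptor genes 2 were past 2-fold higher, the integrin chain Itga2 at 5.37 and 17.4 CPM and the collagen uptake receptor Mrc2 at 25.1 and 57.5 CPM. The remaining one of the 10 largest by size was Tango2, at 31.0 and 69.7 CPM. It was counted on the export list but is not the procollagen export receptor TANGO1. That receptor is encoded by Mia3, which was within 2-fold at 81.2 and 110 CPM.

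In endothelial-like cells, 1883 in WT and 2376 in N-LKO, collagen mRNA summed to 666 CPM (633 to 699) and 930 CPM (898 to 962), a log2 ratio of 0.48 (0.39 to 0.57). Of 17 genes compared 5 were past 2-fold higher and none lower, where 11.9% of all genes compared were higher and 7.24% lower, and the median of the 17 was 0.52 beside 0.09 over all genes. Basement membrane chains led the class. Col4a1 stood at 242 CPM (223 to 263) and 306 CPM (288 to 325), a log2 ratio of 0.34 (0.19 to 0.49), and Col4a2 at 129 CPM (115 to 144) and 224 CPM (209 to 241), a log2 ratio of 0.80 (0.61 to 1.00). The 2 partner chains were thus both higher in N-LKO, within 2-fold. Of the 12 endothelial markers 11 were lower in N-LKO, with sums of 8519 and 5736 CPM, and the 9 fibroblast markers summed to 15.1 CPM (6 seen) and 70.8 CPM (7 seen), above free-RNA levels of 2.23 and 9.67 CPM. Their part in the collagen ratios was not tested.

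Col13a1 had its highest level in this class in both libraries, 72.5 CPM (62.1 to 84.1) and 56.6 CPM (48.9 to 65.1), 1.87 and 2.69 times that of the next class. Fibrillar Col5a2 stood at 45.7 CPM (37.5 to 55.1) and 65.6 CPM (57.3 to 74.7), well above its free-RNA levels of 3.00 and 5.91 CPM. Col18a1 at 61.6 CPM in WT was not above its free-RNA level of 54.1 CPM, and at 85.0 CPM in N-LKO it was above 50.8 CPM. Col14a1 (29.3 and 25.8 CPM), Col27a1 (15.9 and 15.7 CPM), Col4a4 (26 and 31 UMIs) and Col8a1, a short-chain network collagen of vessels (7.96 and 13.9 CPM), were within 2-fold. The type I and III chains gave 2.51 to 8.41 CPM, and of these only Col3a1 in WT lay above its free-RNA level.

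The 5 genes past 2-fold were all low in WT. All but Col4a3 were under 5 CPM there, so they entered through N-LKO alone and had to be higher. Col4a3 stood at 5.87 CPM (3.21 to 9.84) and 27.9 CPM (22.6 to 34.0), a log2 ratio of 2.20 (1.43 to 3.17). Col4a5, the X-linked chain that joins it in a trimer, had 2 UMIs and 41, a log2 ratio of 3.52 (1.88 to 6.92). Col15a1 had 5 and 31 UMIs (log2 1.99, 0.73 to 3.82), the fibrillar Col5a3 had 9 and 43 (1.66, 0.67 to 2.95) and the transmembrane Col25a1 6 and 34 (1.88, 0.70 to 3.52). In WT, Col4a5, Col15a1 and Col5a3 were not above their free-RNA levels. Without a mitochondrial limit Col4a3 and Col5a3 were no longer past 2-fold, at 0.36 and 0.10, nor with doublets kept, at 0.73 and 0.26. The Col4a4 ratio ran from -1.51 with doublets kept to 3.08 at 10% mitochondrial UMIs.

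Cholangiocyte-like cells, 201 in WT and 512 in N-LKO, used a different set of type IV chains. Col4a5 led in both libraries, at 208 CPM (160 to 265) and 161 CPM (136 to 188), and Col4a6, its neighbor on the X chromosome, stood at 54.3 CPM (31.6 to 87.0) and 67.6 CPM (52.1 to 86.3). Together these chains, which can form a trimer of their own in epithelial basement membranes, made up 52.0% and 13.6% of the type IV UMIs in WT and 33.9% and 14.3% in N-LKO. In stellate-like cells the same chains were 0.101% each in WT and 2.81% and 0.134% in N-LKO, and Col4a1 and Col4a2 made up 68.3% and 30.4% in WT and 56.5% and 36.5% in N-LKO. In cholangiocyte-like cells at 1000 UMIs each, Col4a5 was seen in 15.4% of WT (10.7 to 21.2) and 14.5% of N-LKO cells (11.5 to 17.8), against 0.0850% and 0.369% of T-like cells. Unthinned, the shares were 22.9% and 23.2% at median depths of 1379 and 1606.5 UMIs, and 0.170% and 0.844% in T-like cells.

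Between the libraries, summed collagen in the cholangiocyte-like class was 588 CPM (506 to 679) and 763 CPM (708 to 820), a log2 ratio of 0.37 (0.14 to 0.62). Of 8 genes compared, 1 was past 2-fold higher and none lower, where 9.23% of all genes were higher and 6.59% lower, and the median was 0.83 beside 0.05. That gene was Col14a1, with 4 and 27 UMIs, or 12.8 and 28.5 CPM, and the interval of its log2 ratio, -0.36 to 3.13, includes 0. Its WT value was not above the free-RNA level of 10.1 CPM. Col4a1 had a log2 ratio of 0.77 (0.15 to 1.51), Col18a1 0.92 (0.26 to 1.71) and Col4a2 0.98 (0.06 to 2.16), while Col4a5 had -0.38 (-0.80 to 0.07), Col4a6 0.28 (-0.47 to 1.18), Col27a1, a fibrillar chain, -0.46 (-1.30 to 0.48) and Col4a3 0.89 (-0.27 to 2.53).

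**Figure D4:**
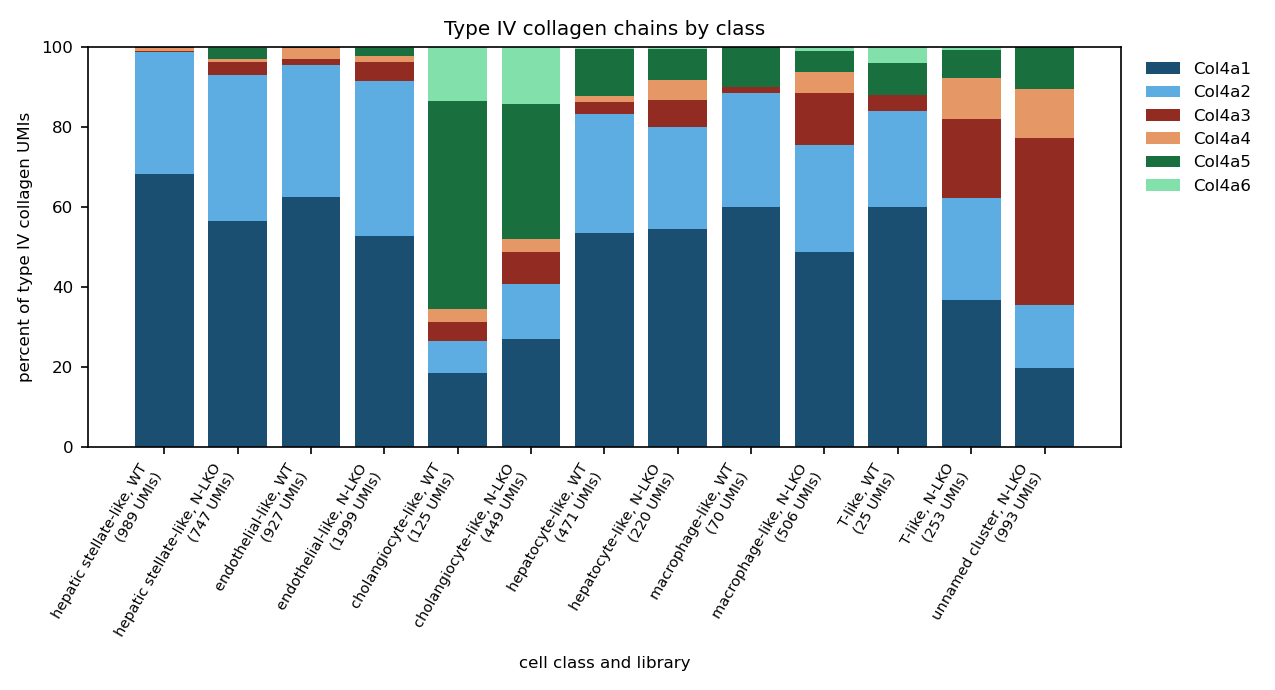
Stacked bars give the percent of type IV collagen UMIs from each of the 6 chains, by cell class and library, with the number of UMIs under each bar. Col4a1 and Col4a2 fill most of the stellate-like and endothelial-like bars, Col4a5 and Col4a6 take 52.0% and 13.6% of the WT cholangiocyte-like bar, and Col4a3 takes 41.8% of the bar of the unnamed N-LKO cluster.

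Hepatocyte-like cells numbered 9913 in WT and 2106 in N-LKO. Col18a1 was by far their leading collagen, at 247 CPM (240 to 255) and 189 CPM (177 to 202), a log2 ratio of -0.39 (-0.49 to -0.28), and both values lay above free-RNA levels of 92.8 and 40.4 CPM. Free RNA was estimated to make up 82.1% of this class's UMIs in WT against 38.7% in N-LKO, and the Col18a1 log2 ratio was -1.30 with it subtracted and -0.02 in cells of at least 500 UMIs. Summed collagen was 376 CPM (367 to 386) and 298 CPM (283 to 315), a log2 ratio of -0.33 (-0.42 to -0.25). Of 9 genes compared 1 was past 2-fold higher and 4 lower, where 5.47% of all genes were higher and 3.24% lower, and the median was -0.42 beside 0.04.

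The 4 lower genes were 3 fibrillar chains and Col14a1. Col5a3 stood at 20.1 CPM (18.0 to 22.4) and 7.56 CPM (5.26 to 10.5), and Col27a1 at 19.2 CPM (17.2 to 21.5) and 7.77 CPM (5.44 to 10.8), both above their free-RNA levels in both libraries. With the unnamed cluster described below counted as hepatocyte-like, neither was past 2-fold, and their log2 ratios of -1.40 and -1.29 became -0.05 and -0.12. Col14a1 (18.8 and 7.34 CPM) and Col3a1 (7.77 and 3.46 CPM) were not above their free-RNA levels, 17.5 and 13.0 CPM for Col14a1, and were read as background. The higher gene was the fibril-associated Col12a1, with 44 and 30 UMIs, or 2.63 CPM (1.91 to 3.53) and 6.48 CPM (4.37 to 9.25). Col12a1 entered through N-LKO alone and Col3a1 through WT alone, so their directions were fixed. Col4a1 and Col4a2 had log2 ratios of 0.79 and 0.54, and of their 4 values 1, Col4a1 in N-LKO, was above its free-RNA level. Col15a1 stood at 5.02 and 3.67 CPM.

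Most hepatocyte-like cells of each library were in clusters that held few cells of the other. Of the 9913 WT cells, 8133 were in a cluster led by Mup12 and 98.9% WT, and 1994 of the 2106 N-LKO cells were in a cluster led by Spink1, Saa2 and Saa1 and 94.3% N-LKO. The 121 WT cells in that second cluster had Col18a1 at 170 CPM (122 to 230) beside 190 CPM (178 to 204) in its N-LKO cells. Col27a1 was 29.0 CPM (11.7 to 59.7) in those WT cells and 8.14 CPM (5.70 to 11.3) in the N-LKO ones, and Col12a1 8.28 CPM (1.00 to 29.9), from 2 UMIs, and 6.78 CPM (4.58 to 9.69).

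The Col4a3 and Col4a4 genes lie head to head on chromosome 1, with 71 bases between their starts in the GRCm38 annotation, and encode chains that join Col4a5 in the basement membrane network of kidney glomerulus and some epithelia. In N-LKO, 51.5% of the Col4a3 UMIs and 44.6% of the Col4a4 UMIs were in 1 cluster that markers did not name. The highest level of Col4a4 was in mesothelial-like cells of both libraries, at 115 CPM in WT (6 UMIs) and 97.8 CPM in N-LKO (12 UMIs). The cluster held 1960 N-LKO cells and 1 WT cell and was led by Eda, Tmem45b, Gm44507, Sybu and Rgs7. Its highest marker score was that of smooth muscle at 0.13, with 1 marker raised. Its 10 hepatocyte markers summed to 13033 CPM, against a free-RNA level of 10316 CPM and 39617 CPM in N-LKO hepatocyte-like cells. Of these, Alb was 4202 CPM and Cps1 2534 CPM, beside 16298 and 1767 CPM in the N-LKO cells of the cluster led by Spink1. Its 10 cholangiocyte markers summed to 366 CPM, against a free-RNA level of 54.4 CPM and 4863 CPM in N-LKO cholangiocyte-like cells. Nus1 was 28.1 CPM (23.0 to 34.0), beside 39.1 CPM in N-LKO hepatocyte-like and 80.1 CPM in N-LKO stellate-like cells. The cluster's nuclear RNA Malat1 was 20205 CPM. Within it Col4a3 had 415 UMIs in 306 cells, or 111 CPM, and Col4a4 121 UMIs in 106 cells, or 32.4 CPM (26.9 to 38.7), above free-RNA levels of 4.27 and 1.76 CPM. 41 cells had both, and no cell had more than 5 UMIs of Col4a3 or 3 of Col4a4.

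Because this gene pair shares its start region, the interval between the starts is shown, with the same length before each start of the Col4a6 and Col4a5 pair, in which the starts lie 1308 bases apart. The interval between Col4a4 and Col4a3 is chr1:82586850-82586920, written along Col4a4 on the minus strand, and the windows of Col4a6 and Col4a5 are chrX:141474077-141474147 on the minus strand and chrX:141475314-141475384 on the plus strand, all from RefSeq promoter windows on GRCm38. Capitals mark a GC box.
Col4a4 to Col4a3 interval: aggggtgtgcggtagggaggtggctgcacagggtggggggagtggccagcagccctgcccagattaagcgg
Col4a6 upstream: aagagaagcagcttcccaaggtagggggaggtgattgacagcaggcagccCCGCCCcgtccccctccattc
Col4a5 upstream: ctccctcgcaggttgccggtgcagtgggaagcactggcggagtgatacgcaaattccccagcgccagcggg
The motifs searched, on both strands, were the GC box (GGGCGG or CCGCCC), the CCAAT box (CCAAT or ATTGG) and the TATA box (TATAAA or TTTATA), which 20.9%, 13.3% and 4.42% of 32544 promoter windows of this length hold. The interval held none of these letters and was 69.0% G and C, against a median of 54.9% over all windows, the Col4a6 window held 1 GC box, and the Col4a5 window held none. Some RefSeq transcripts of Col4a4 start beyond this interval.

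Beside this pair, the unnamed cluster had Col18a1 at 179 CPM (166 to 193), Col4a1 at 52.2 CPM (45.1 to 60.1), Col5a3 at 34.3 CPM (28.6 to 40.7), Col27a1 at 112 UMIs (24.7 to 36.1 CPM) and Col4a5 at 27.8 CPM (22.7 to 33.7). Col4a3 was 41.8% of its type IV UMIs and Col4a4 12.2%, and no UMI of Col4a6 was counted. The hepatocyte-like cluster with the most Malat1, 316 WT cells in a cluster at 35649 CPM, had Col18a1 at 399 CPM (352 to 451), Col5a3 at 78.4 CPM (58.3 to 103) and Col27a1 at 50.7 CPM (34.9 to 71.2), but Col4a3 at 6.15 CPM (1.67 to 15.7) from 4 UMIs. Counted as hepatocyte-like, the unnamed cells would bring that class to a Col4a3 level of 51.4 CPM in N-LKO against 0.837 CPM in WT and turn its summed collagen log2 ratio from -0.33 to 0.22.

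Col4a3 was higher in N-LKO in every class in which it was compared. Where WT held 4 UMIs (stellate-like) or 1 (macrophage-like, T-like, B-like and neutrophil-like), it entered through N-LKO and had to be higher. For cholangiocyte-like cells its log2 ratio was 0.89, but -0.58 at 2000 UMIs per cell. Across several classes the level of Col4a3 outside the unnamed cluster ran beside that of the cluster's own leading genes. In N-LKO, endothelial-like Col4a3 was 25.1% of the cluster's level, where the 5 leading genes ranged from 20.9% to 26.0%. In stellate-like cells it was 18.8%, within 17.3% to 29.2%, in macrophage-like cells 6.86%, within 6.60% to 7.85%, in T-like cells 15.5%, beside 15.7% to 23.0%, and in barcodes under 500 UMIs 7.53%, within 6.32% to 9.85%. In cholangiocyte-like cells it stood above all 5 leading genes, at 34.2% beside their median of 13.2%, and the WT cells of that class had 6 UMIs of Col4a3, or 19.2 CPM (7.04 to 41.7). Both were above free-RNA levels of 0.290 and 3.59 CPM. Col4a3 also stood above all 5 in mesothelial-like (58.7%, 8 UMIs), erythroid-like (42.6%, 9 UMIs) and neutrophil-like cells (18.7%, 23 UMIs). Its partner Col4a4 stood above all 5 in T-like (27.6%, 26 UMIs), endothelial-like (27.8%, 31 UMIs) and macrophage-like cells (9.63%, 27 UMIs). The same held in cholangiocyte-like (45.7%, 14 UMIs), erythroid-like (48.7%, 3 UMIs) and mesothelial-like cells (302%, 12 UMIs). It was below all 5 in stellate-like (16.1%, 6 UMIs), B-like (10.1%, 4 UMIs) and plasmacytoid dendritic-like cells (4.07%, 1 UMI). In WT endothelial-like cells it was 33.6% of the cluster's level (26 UMIs).

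**Figure D5:**
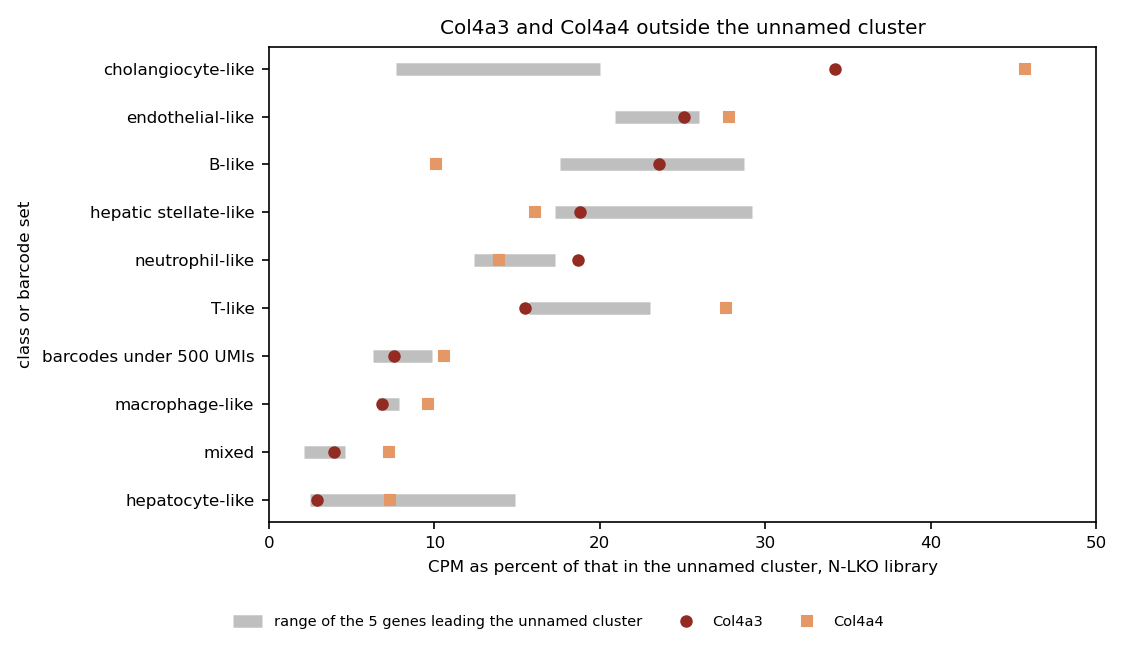
For classes of the N-LKO library and its barcodes under 500 UMIs, points give the CPM of Col4a3 and Col4a4 as a percent of their CPM in the unnamed cluster, and grey bars give the range of the 5 genes that lead that cluster. Classes with few Col4a3 UMIs, mesothelial-like (8 UMIs) and erythroid-like (9 UMIs) among them, are not drawn. Col4a3 lies within or at the edge of the grey bar in endothelial-like (25.1%), stellate-like (18.8%) and macrophage-like (6.86%) cells. It lies to the right of the bar in cholangiocyte-like (34.2%) and neutrophil-like (18.7%) cells. Col4a4 lies to the right of the bar in cholangiocyte-like (45.7%), endothelial-like (27.8%) and macrophage-like (9.63%) cells, and to its left in stellate-like cells (16.1%).

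In macrophage-like cells, 2441 in WT and 5536 in N-LKO, collagen mRNA was low at 122 CPM (111 to 135) and 188 CPM (179 to 197), beside summed free-RNA levels of 86.8 and 130 CPM. 6 of 12 genes were past 2-fold higher and none lower, where 4.75% of all genes were higher and 5.79% lower, and the median was 0.96 beside -0.04. They were Col4a1 (12.1 and 28.4 CPM), Col4a2 (5.75 and 15.7 CPM), Col1a2 (2.59 and 7.16 CPM), Col3a1 (2.30 and 7.51 CPM), Col15a1 (2.01 and 6.24 CPM) and Col4a3 (0.287 and 7.63 CPM). Col1a2, Col3a1, Col15a1 and Col4a3 were under 5 CPM in WT, so they entered through N-LKO alone and had to be higher. Col1a2 and Col3a1 were at their free-RNA levels in both libraries, and those levels themselves were higher in N-LKO, at 2.30 and 5.56 CPM and at 3.32 and 7.53 CPM. Col18a1 (42.2 and 43.9 CPM), Col14a1 (16.1 and 17.4 CPM), Col27a1 (7.76 and 6.24 CPM), Col5a3 (5.17 and 4.74 CPM), Col13a1 (3.73 and 5.55 CPM) and Col5a2 (3.16 and 5.31 CPM) were within 2-fold.

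T-like cells, a class that here includes natural killer cells and is not known to make collagen, also had collagen genes past 2-fold. 7 of 13 genes were past 2-fold higher, where 11.6% of all genes were: Col3a1, Col5a2, Col4a4, Col4a3, Col4a1, Col4a2 and Col4a5. All but Col4a1 were under 5 CPM in WT, so they entered through N-LKO alone and had to be higher. Col4a3 had 1 UMI in WT and 50 in N-LKO, and its log2 ratio was 4.17 (2.19 to 10.07). Col4a4 had 0 and 26, at least 4.62-fold higher against a floor of 3 counts in the WT library, 1.94 CPM. Col5a2 (1 and 24 UMIs) and Col3a1 (6 and 36 UMIs) were not above their free-RNA levels in either library. In B-like cells 3 of 7 were past 2-fold higher (Col5a2, Col4a3 and Col4a2), where 10.6% of all genes were, in neutrophil-like cells 2 of 7 (Col4a3 and Col4a2; 12.6%), in dendritic-like cells 1 of 2 (Col4a1; 7.73%) and in plasmacytoid dendritic-like cells 1 of 3 (Col4a2; 8.92%). Col14a1 was past 2-fold lower in plasma-like cells, 1 of 2 compared, where 9.81% of all genes were, from 11 UMIs in 3 WT cells and 12 in 10 N-LKO cells.

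Mesothelial-like cells, the cells of the liver's outer sheet, had the highest level per UMI of several fibrillar genes, although only 34 WT and 77 N-LKO cells were found. Col3a1 stood at 920 CPM (679 to 1220) and 798 CPM (648 to 973), 2.29 and 1.71 times the stellate-like level, and Col1a2 at 709 CPM (500 to 978) and 432 CPM (323 to 565). Of 7 genes compared 2 were past 2-fold lower in N-LKO, where 9.27% of all genes were: Col1a1, at 441 CPM (280 to 662) and 171 CPM (106 to 262), and Col4a1, at 249 CPM (133 to 426) and 89.6 CPM (44.7 to 160). Their 9 fibroblast markers summed to 729 and 473 CPM beside 2531 and 2102 CPM for the 6 mesothelial markers, and these Col1a1 counts were 23 UMIs from 6 cells and 21 UMIs from 13 cells.

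Collagen genes are long, and in these libraries the ratio moved with gene length. The median span of the 44 genes was 114 kb, against 12.3 kb for all genes. In stellate-like cells the median log2 ratio of all genes went from -0.52 in the shortest to 0.30 in the longest of 5 equal bins of span, and 13 of the 21 collagens compared lay in the longest bin, with a median of 0.37. In endothelial-like cells the longest bin had a median of 0.46 over all genes and 0.52 over 13 collagens, in macrophage-like cells 0.25 and 0.70 over 9, and in cholangiocyte-like cells 0.31 and 0.83 over 8. In hepatocyte-like cells the trend ran the other way, from 0.26 in the shortest to -0.07 in the longest bin, with -0.39 over 7 collagens. The part of span in the collagen ratios was not tested.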

How the data were processed

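The authors deposited UMI counts per gene and barcode for 1 WT and 1 N-LKO library, made with Cell Ranger 7.1.0 per the file headers. The submitters' processing notes name mm9 and Seurat. The annotation and strand setting of the counting are not given in the sources used here. The matrices held 100171 and 90147 barcodes with 85522287 and 87575064 UMIs, and no barcode had fewer than 326 or 377 UMIs.

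Barcodes with at least 1000 UMIs and 400 genes and at most 30% mitochondrial UMIs were kept (20158 and 22214), and doublets, scored by Scrublet in scanpy 1.11.5 and removed above 0.25, were 8.59% and 10.6% of them. The study's UMAP used an equal and smaller number of cells per genotype. Both libraries were clustered together (2000 variable genes without collagens, 30 principal components, 20 neighbors, resolution 0.3, leidenalg 0.10.2). A cluster was named from at least 3 markers raised 2-fold and a score of at least 0.2, and was called mixed when a second score reached 0.7 of the first. That limit was set after the data were seen, because at 0.6 the stellate cluster, at 0.668, stayed without a name. Collagen genes were not used as markers. UMIs were summed per library and class, with exact Poisson intervals for CPM and exact conditional binomial intervals for ratios, and Clopper-Pearson intervals for shares. Free RNA was the profile of barcodes under 500 UMIs, scaled in each class to hepatocyte markers, or to Kupffer, endothelial, T and B markers in hepatocyte-like and unnamed cells. A value was above it when its lower bound was. Scripts for ratios were tested on simulated data.

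The members and lists were chosen with earlier results of these data known. In the 5 main classes, the 10 genes with the highest mean CPM among those compared and each gene past 2-fold are named, as are genes past 2-fold in the other classes and up to 10 pathway genes by size in stellate-like cells. Gene spans and coordinates come from GENCODE on GRCm38, matched by gene ID, and promoter windows from RefSeq on GRCm38, which held 35 of the 44 genes.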

Additional observations from a re-analysis of the deposited data

Results flagged for a closer look

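In 3 genes the ratio pointed past 2-fold one way in 1 class and past 2-fold the other way in hepatocyte-like cells. With 1 library per group these differences between classes were not tested. Col3a1 had a log2 ratio of 1.63 in macrophage-like and -1.13 in hepatocyte-like cells, a difference of 2.76, and Col5a3 had 1.66 in endothelial-like and -1.40 in hepatocyte-like cells, a difference of 3.06. Col14a1 was 2.35 higher on the log2 scale in cholangiocyte-like cells than in hepatocyte-like cells, where it had -1.34. Col3a1 entered through N-LKO alone in macrophage-like cells and through WT alone in hepatocyte-like cells, so both directions were fixed. Col5a3 entered through N-LKO alone in endothelial-like cells. For Col3a1 none of the 4 values lay above the free-RNA level of its class. Neither did the hepatocyte-like values of Col14a1, its WT cholangiocyte-like value or the WT endothelial-like value of Col5a3. The hepatocyte-like log2 ratio of Col14a1 was 0.49 at 10% mitochondrial UMIs.

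Barcodes under 500 UMIs were in no comparison of cells, and of 16 collagen genes compared there 8 were past 2-fold higher in N-LKO and none lower, where 18.6% of all genes were higher and 16.8% lower. The largest log2 ratio was that of Col4a3, at 3.65, its level being 0.612 CPM in the WT barcodes and 8.36 CPM in those of N-LKO. Col6a3 had 1.80, Col4a2 1.71, Col1a1 1.62, Col4a1 1.52, Col4a5 1.44, Col1a2 1.31 and Col3a1 1.22, while Col5a1, at 1.00 after rounding, lay just under 2-fold. Col4a3, Col6a3, Col1a1 and Col4a5 were under 5 CPM in the WT barcodes, so they entered through N-LKO alone and had to be higher. Col18a1, which had the highest level there at 113 and 104 CPM, had -0.11.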

How the results depend on the processing

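No paired analysis was possible because each group had 1 library. Ratios were recomputed under 16 planned settings and 3 chosen after seeing the data (stellate-like cells with few endothelial-marker UMIs or no fibroblast-marker UMI, and the unnamed cluster counted as hepatocyte-like). The settings of 2000 UMIs and of 10% mitochondrial UMIs were subsets of the classes and were not clustered again. Of 58 gene and class pairs named, 36 kept 1 sign throughout. The causes of the changes below were not tested.

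The summed stellate-like log2 ratio of -0.04 was 0.18 with free RNA subtracted, 0.06 with median-of-ratios scaling, -0.13 without doublet removal and without a mitochondrial limit, -0.29 at resolution 1.0, -0.39 with 2 or fewer endothelial-marker UMIs and -0.28 with no fibroblast-marker UMI, so it has no settled direction. The endothelial-like sum (0.48) was 0.36 at 500 UMIs and without a mitochondrial limit, 0.37 with mixed clusters counted in their highest class and 0.60 with doublets kept. The macrophage-like sum (0.62) was 0.46 at 2000 UMIs and without a mitochondrial limit and 0.79 with doublets kept, and the cholangiocyte-like sum (0.37) and median (0.83) were 0.06 and -0.58 at 2000 UMIs. The hepatocyte-like sum (-0.33) was -1.34 with free RNA subtracted and -0.46 at 10% mitochondrial UMIs, and turned to 0.02 at 500 UMIs and to 0.22, with a median of 0.87, with the unnamed cluster.

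The numbers of genes past 2-fold in stellate-like, endothelial-like, cholangiocyte-like, hepatocyte-like and macrophage-like cells (7, 5, 1, 5 and 6) became 17, 14, 7, 20 and 22 with no minimum level. With at least 100 UMIs they were 3 stellate-like, 1 endothelial-like, 0 cholangiocyte-like and 2 macrophage-like, at 2000 UMIs per cell 3 stellate-like, 2 cholangiocyte-like and 2 macrophage-like, and at 500 UMIs 3 hepatocyte-like and 0 cholangiocyte-like. At 10% mitochondrial UMIs there were 2 endothelial-like and 3 hepatocyte-like, with free RNA subtracted 3 macrophage-like, and with few endothelial-marker UMIs 3 stellate-like. The single cholangiocyte-like gene became 0 with 1 UMI added or median-of-ratios scaling, 2 with collagens in the clustering, after thinning or at resolution 1.0, and 3 with equal weight per cell.

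The stellate-like share of collagen UMIs in WT (35.5%) ranged over 23.6% (resolution 1.0), 28.9% (500 UMIs), 32.7% (thinned), 33.1% (no mitochondrial limit), 36.3% (equal weight), 45.9% (2000 UMIs), 48.2% (free RNA subtracted), 61.0% (without clusters mostly of 1 library) and 61.6% (10% mitochondrial). In N-LKO (21.3%) it was 17.5%, at resolution 1.0, 19.7% (10% mitochondrial), 22.0% (doublets kept), 23.0% (2000 UMIs), 27.3% (without clusters mostly of 1 library) and 28.2% (free RNA subtracted). In hepatocyte-like cells Col12a1 (1.31) turned to -0.10 at resolution 1.0 and -0.49 at 10% mitochondrial UMIs, and Col14a1 (-1.34) to 0.48 and 0.49. In stellate-like cells Col14a1 stayed between -1.16 and -0.43, Col1a1 between 0.46 and 1.51 and Col15a1 between 3.62 and 7.39 under all the settings that gave a value.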

Other observations

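Some collagen levels lay outside the comparisons between libraries. In N-LKO the fibril-associated Col22a1 and Col20a1 each had 39 UMIs in the unnamed cluster, or 10.4 CPM (7.42 to 14.3), above free-RNA levels of 0.335 and 0.837 CPM, and Col8a1 had 26 UMIs there, or 6.96 CPM. In the whole libraries Col22a1 had 2 UMIs in WT cells and 73 in N-LKO cells. In stellate-like cells Col25a1 had 13 UMIs in WT and 1 in N-LKO, and Col12a1 had 2 and 13. Col16a1, a fibril-associated collagen, had 39 of its 46 WT UMIs in stellate-like cells, at 23.3 CPM (16.6 to 31.8) against 0.646 CPM in T-like cells, the next class.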
